A study of Mus musculus with 12 samples.

Results

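Lungs of mice given tpMSC were compared with lungs of mice given MSC, using 6 of the 12 RNA sequencing libraries of the study, 3 per treatment. Group membership was taken from the sample titles, and the comparison covered every gene that passed a filter on low counts, 22915 of 38349. The study placed both treatments on acute lung injury from hypoxia and lipopolysaccharide (LPS), a component of the bacterial outer membrane, per its title. All 6 lungs were wild type, and the labels used here give no dose, route, time, age, sex or strain. MSC stands for mesenchymal stromal cells in common usage, and the labels do not describe how tpMSC cells differ from them. The other 6 libraries, 3 uninjured lungs (Control) and 3 injured lungs without cell treatment (ALI), entered the same fit and served as reference levels. The labels do not say that the replicates of a group came from separate animals, and every p-value below reflects only how far these libraries spread, which may be technical.

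Injured lung recruits neutrophils and monocytes, and resident alveolar macrophages decline while endothelial cells lose part of their quiescent program. LPS activates NF-kB, a transcription factor that switches on cytokines such as TNF together with its own inhibitors, and a later interferon response follows. Id proteins are inhibitors of basic helix-loop-helix transcription factors that bone morphogenetic protein (BMP) signalling induces in endothelium. Heat shock chaperones refold damaged proteins and are induced by the transcription factor HSF1.

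The 6 libraries held 62265089 to 70209229 counts. Markers of lung were abundant in each of them: the surfactant gene Sftpc lay between 6704 and 9000 FPKM (fragments normalised to transcript length and library size), and the type 1 cell gene Ager between 701 and 908 FPKM. A pair of libraries stood apart. MSC-3 had the lowest mean correlation of log2 CPM (counts scaled to library size) with the other libraries of its group (0.965, against 0.971 and 0.969 for MSC-1 and MSC-2), and it held an immunoglobulin sum of 13130 CPM where the other 5 libraries held 178.2 to 1020. It also had the lowest mean level of cardiac genes (-0.87 on the log2 scale relative to Control) and adipose genes (-1.91), where the other 5 libraries ran from 0.38 to 2.75 and from 0.32 to 1.79. tpMSC-3 lay with the MSC libraries, or above them, in NF-kB and interferon genes. The part of these other-tissue levels in the results below was not tested. Each result is therefore given with all libraries and, where they change it, without MSC-3 or without tpMSC-3.

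With all 12 libraries, edgeR's quasi-likelihood test called 7 genes between tpMSC and MSC at a Benjamini-Hochberg adjusted p under 0.05, which is 0.0305% of the genes tested. The 4 that rose were Id1, Id3, Gja4 and Bcl6b, and the 3 that fell were Pla2g7 and the immunoglobulin segments Iglv2 and Igkv3-12. At an unadjusted p under 0.05, 5.5% of genes were higher and 7.13% lower in tpMSC. The FPKM of the 3 tpMSC libraries lay wholly above those of MSC for 5.18% of genes and wholly below for 8.1%. These shares are the reference for the counts within lists below. The median log2 fold change over all genes was -0.0014.

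**Figure D1:**
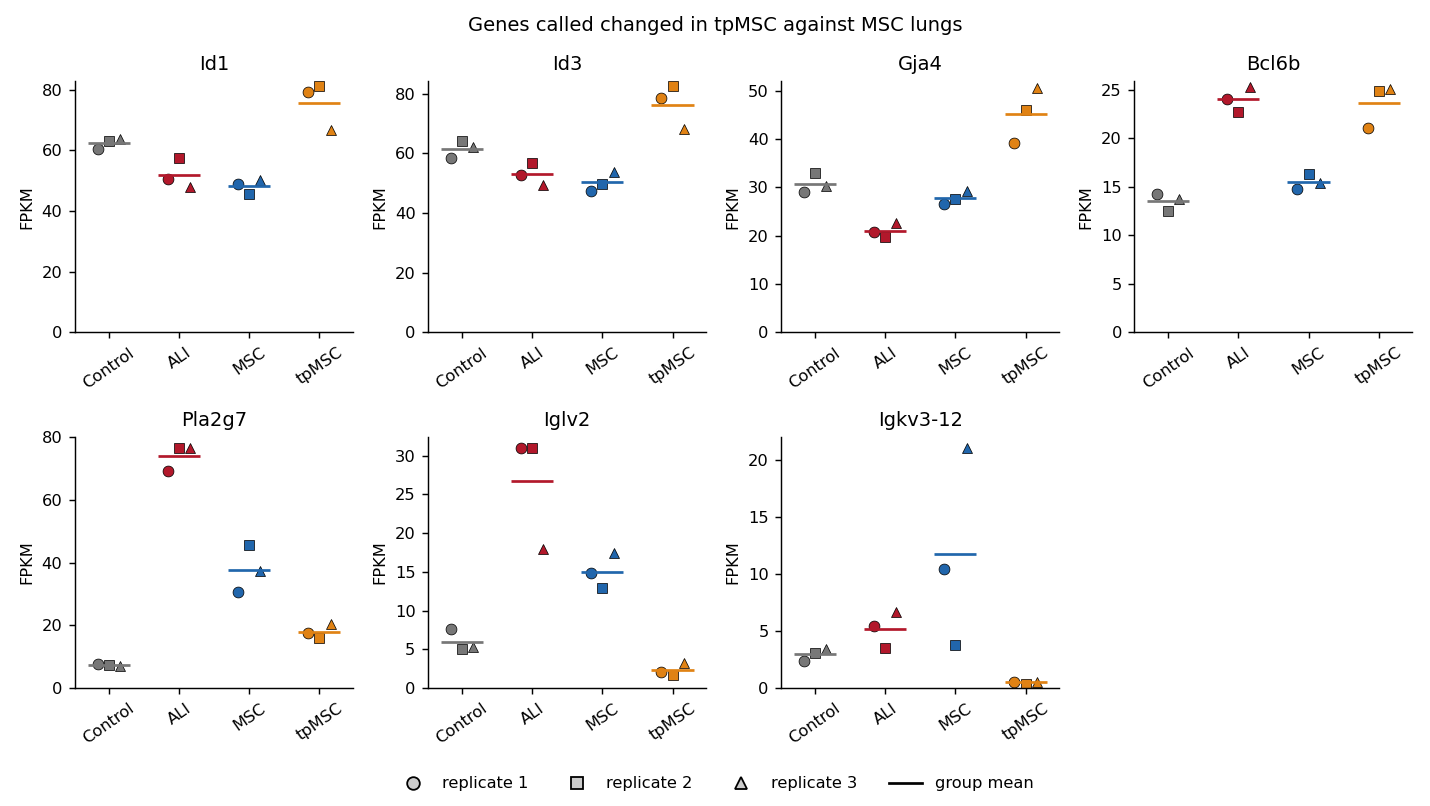
FPKM of the 7 genes called between tpMSC and MSC, with 1 panel per gene, 1 symbol per library and a line at each group mean (n = 3). In every panel the tpMSC libraries lie wholly above or wholly below the MSC libraries, and Pla2g7 in tpMSC remains above the Control libraries.

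Id1, an inhibitor of helix-loop-helix factors and a direct BMP target, measured 48.96, 45.77 and 50.23 FPKM in the MSC libraries and 79.42, 81.12 and 66.89 FPKM in tpMSC. All 3 tpMSC libraries were above all 3 MSC libraries, and also above the Control (62.4 ± 1.72 FPKM, SD, n = 3) and ALI (52.0 ± 4.98) means. Its log2 fold change was 0.67 ± 0.09 (SE, adjusted p = 0.0444), a 1.59-fold rise. Id1 lies at chr2:152736251-152737410 on the plus strand of GRCm38.

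Its relative Id3 measured 47.39, 49.72 and 53.85 FPKM in MSC and 78.44, 82.44 and 68.01 FPKM in tpMSC. The groups did not overlap, and tpMSC-3 was the lowest of its group for both genes. The log2 fold change of Id3 was 0.62 ± 0.09 (SE, adjusted p = 0.0465). In ALI against Control neither gene was called, with log2 fold changes of -0.20 for Id1 and -0.15 for Id3. Id3 lies at chr4:136143497-136145755.

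Gja4, which encodes the arterial gap junction protein connexin 37, measured 26.47, 27.70 and 29.31 FPKM in MSC and 39.25, 45.94 and 50.47 FPKM in tpMSC. Its rise in tpMSC was 0.73 ± 0.10 on the log2 scale (SE, adjusted p = 0.0465), and tpMSC libraries were above the Control mean of 30.8 ± 1.96 FPKM (SD, n = 3). In ALI the gene fell by 0.48 on the log2 scale against Control. Gja4 lies at chr4:127311421-127314039.

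Bcl6b, a transcriptional repressor of endothelium related to Bcl6, measured 14.72, 16.32 and 15.41 FPKM in MSC and 21.03, 24.81 and 25.03 FPKM in tpMSC, without overlap. The rise was 0.63 ± 0.09 on the log2 scale (SE, adjusted p = 0.0465). Unlike Gja4, Bcl6b also rose in ALI against Control, by 0.89 on the log2 scale, so its tpMSC mean (23.6 ± 2.25 FPKM) was close to the ALI mean (23.98 ± 1.3) and its MSC mean (15.5 ± 0.80) close to Control (13.5 ± 0.90). The gene lies at chr11:70224128-70229798. Without MSC-3 its adjusted p was 0.0726, so the call was lost there.

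Pla2g7 encodes the secreted phospholipase that breaks down platelet-activating factor and is made by macrophages. It measured 30.52, 45.61 and 37.18 FPKM in MSC and 17.53, 15.88 and 20.35 FPKM in tpMSC, a fall of 1.05 ± 0.14 on the log2 scale (SE, adjusted p = 0.0444). Each tpMSC library was below each MSC library. The gene rose in ALI by 3.40 on the log2 scale, from 7.30 ± 0.45 to 74.1 ± 4.25 FPKM (SD, n = 3), so both treated groups lay between Control and ALI and tpMSC lay nearer Control. It lies at chr17:43568098-43612201.

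These calls depended on tpMSC-1 and tpMSC-2. Without tpMSC-1 only Gja4 and Bcl6b were called (adjusted p = 0.0365 for both), and the other 5 had adjusted p of 0.161 to 0.181. Without tpMSC-2 no gene was called, 1825 genes had an unadjusted p under 0.05, and the 7 had adjusted p of 0.21 to 0.252. No fold change of the 7 changed sign without any of the 6 libraries. The calls also depended on the spread shared with Control and ALI. In an edgeR fit of the 6 libraries alone the 7 had adjusted p of 0.401 to 0.531.

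**Figure D2:**
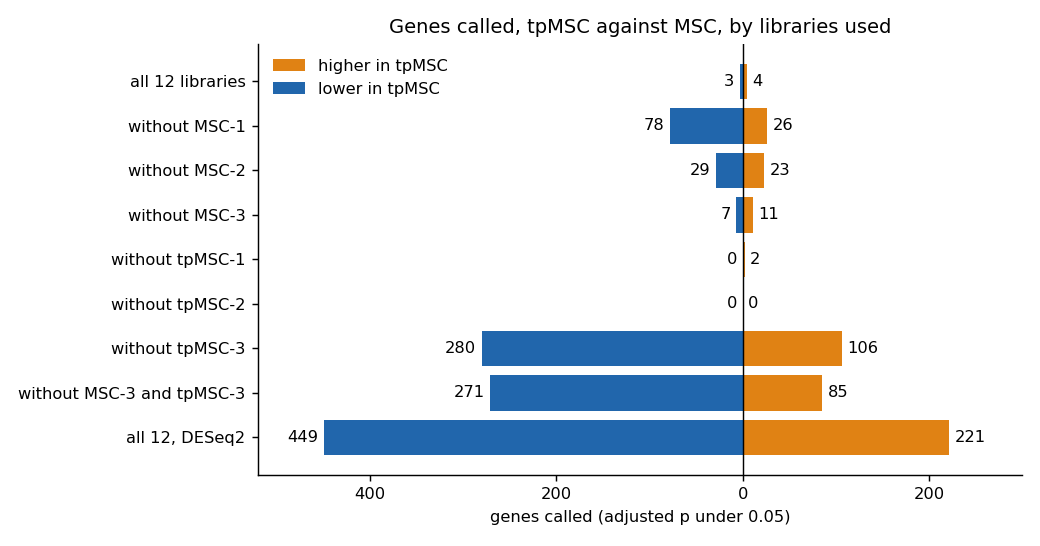
Number of genes called higher (right) and lower (left) in tpMSC against MSC at an adjusted p under 0.05, by the libraries used, with edgeR except in the lowest bar pair. Without tpMSC-3 the counts are 106 higher and 280 lower, against 4 and 3 with all libraries.

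DESeq2 on the same libraries called 221 genes higher (1.15% of 19301 genes given an adjusted p) and 449 lower (2.33%), and the 7 edgeR calls were among them. Genes named as DESeq2 calls below did not pass the edgeR test unless stated.

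Around the called endothelial genes, members of 2 related lists were chosen after their values were seen, and are given as description. Of 26 BMP signalling and Id genes, Id1 and Id3 rose, and 5 were higher and 1 lower at an unadjusted p under 0.05, with a median log2 fold change of 0.12. Smad7, a feedback inhibitor that BMP and TGF-beta induce, measured 9.92, 6.92 and 8.56 FPKM in MSC and 11.4, 11.4 and 10.2 FPKM in tpMSC (adjusted p = 0.172), without overlap. The receptor Acvrl1 and the ligands Bmp4 and Bmp6 were not called, with log2 fold changes of 0.27, 0.12 and 0.37. Smad6, also a BMP target, was at 29.5, 16.4 and 14.7 FPKM in MSC and 20.3, 20.1 and 20.1 FPKM in tpMSC, a log2 fold change of 0.03. Id2 was near equal, with a log2 fold change of -0.02.

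Among 24 genes of arterial endothelium, connexins and Notch signalling, Gja4 and Bcl6b rose and 11 were higher at an unadjusted p under 0.05, none lower (median 0.29). Hes1, a Notch target, measured 20.7, 15.95 and 19.4 FPKM in MSC and 33.9, 25.4 and 26.5 FPKM in tpMSC (log2 fold change 0.64, adjusted p = 0.114). It was called by DESeq2 (adjusted p = 0.0017) and by edgeR without tpMSC-3 (adjusted p = 0.0492). Hey1, another Notch target, went the other way, with a log2 fold change of -0.34 (adjusted p = 0.716). Gja5, the second arterial connexin, had a log2 fold change of 0.40 and an adjusted p of 0.251.

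Of 24 general endothelial genes, edgeR called none and DESeq2 called 3 higher, 5 were higher at an unadjusted p under 0.05, and the median was 0.18. Without MSC-3 the median was 0.053 and DESeq2 called 1. The 3 with the smallest p were Thbd, Cldn5 and Ramp2. Thbd encodes thrombomodulin, the anticoagulant thrombin receptor of endothelium, and measured 100.73, 94.24 and 94.87 FPKM in MSC and 132.25, 151.11 and 114.35 FPKM in tpMSC. All tpMSC libraries were above all MSC libraries, and the Control mean was 138 ± 0.69 FPKM (SD, n = 3). Thbd was not called with all libraries (adjusted p = 0.114) and was called without tpMSC-3 (0.0139). The pan-endothelial gene Pecam1 differed by 0.14 on the log2 scale. In these bulk libraries, fewer cells of a type and less RNA per cell cannot be told apart.

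Among the 7 called genes, the 2 immunoglobulin segments had the largest folds. Iglv2, a lambda light chain segment at chr16:19260401-19260859, measured 14.84, 12.86 and 17.42 FPKM in MSC and 2.10, 1.65 and 3.22 FPKM in tpMSC. It fell by 2.64 ± 0.30 on the log2 scale (SE, adjusted p = 0.0375). The tpMSC libraries were also below the Control mean of 5.98 ± 1.44 FPKM (SD, n = 3). Igkv3-12, a kappa segment at chr6:70518250-70518849, measured 10.47, 3.75 and 21.04 FPKM in MSC and 0.55, 0.35 and 0.56 FPKM in tpMSC (fall of 4.50 ± 0.57, SE, adjusted p = 0.0444). Both segments were named after their values were seen, since the rule for named genes left out such segments. Reads of near-identical segments can be shared among them by the counting.

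Of 157 variable segments tested (of 233 in the table), all 157 had a log2 fold change below 0. The low-count filter could favour a fall, since a segment near 0 in tpMSC passes only through groups where it is high. Segments can also share reads, so they are not separate observations. At an unadjusted p under 0.05, 135 were lower (7.13% over all genes), and 88 lay wholly below MSC (8.1% over all genes). EdgeR called 2 lower with all libraries, 8 without tpMSC-3 and 3 without MSC-3, and DESeq2 called 66 lower. Summed over all immunoglobulin genes, MSC-1, MSC-2 and MSC-3 held 687.3, 1020 and 13130 CPM, and the tpMSC libraries 178.2, 214.9 and 289.5. The tpMSC values were below the Control libraries too, which held 357.9 to 636.8, while ALI held 1526 to 3589. MSC-3 exceeded the sum of MSC-1 and MSC-2, and without it the MSC and tpMSC sums still did not overlap.

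Of 20 plasma cell and immunoglobulin constant genes edgeR called none and DESeq2 12 lower, 17 were lower at an unadjusted p under 0.05, and the median was -2.27 (-1.20 without MSC-3). Ighm, the IgM heavy chain, measured 105.6, 136.95 and 221.16 FPKM in MSC and 29.91, 27.57 and 57.14 FPKM in tpMSC. No tpMSC library reached the lowest MSC library (log2 fold change -1.99, adjusted p = 0.0931, and 0.0065 without tpMSC-3). Ighg2c, an IgG chain, measured 5.69, 24.02 and 470.04 FPKM in MSC, and 0.11, 0.15 and 0 in tpMSC. Ighg3 measured 1.53, 17.4 and 184 FPKM in MSC and at most 0.31 in tpMSC. Igkc, the kappa constant chain, reached 5488.2 FPKM in MSC-3 against 234.92 and 368.79 in MSC-1 and MSC-2, and was 58.12, 71.99 and 90.57 FPKM in tpMSC. Without MSC-3 edgeR called none of the 20 and DESeq2 11 lower, and without tpMSC-3 edgeR called 2 lower. With both replicates 3 left out, edgeR called 6 of the 20 lower.

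B cell genes were lower as well. None of 14 was called by edgeR, 13 were lower at an unadjusted p under 0.05 (median -1.14), and DESeq2 called 9 lower, though none without MSC-3. Ms4a1, which encodes CD20, measured 5.06, 2.24 and 6.84 FPKM in MSC and 1.29, 1.09 and 2.25 FPKM in tpMSC (adjusted p = 0.142, and 0.0394 without tpMSC-3), so MSC-2 was below tpMSC-3. Cd79b, part of the B cell receptor, was at 20.5, 11.5 and 22.3 FPKM in MSC and 7.27, 9.13 and 9.43 FPKM in tpMSC. Blk, a kinase of that receptor, had a log2 fold change of -1.14 (adjusted p = 0.153). The Control means were 6.18 FPKM for Ms4a1 and 29.0 for Cd79b, above every tpMSC library. H2-Oa and H2-Ob, class II accessory chains enriched in B cells, had log2 fold changes of -1.09 and -1.30, while the list of 10 class II genes had a median of -0.19 (-0.023 without MSC-3 and -0.315 without tpMSC-3).

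T cell genes were lower in part: edgeR called none of 22 and DESeq2 called 1, 5 were lower at an unadjusted p under 0.05, and the median was -0.40. Without MSC-3 the T cell median was -0.171, and without tpMSC-3 it was -0.702. Il7r, the interleukin 7 receptor, measured 4.35, 4.40 and 5.42 FPKM in MSC and 2.94, 1.86 and 2.43 FPKM in tpMSC (log2 fold change -0.95, adjusted p = 0.0935). It was called without tpMSC-3 (adjusted p = 0.0448). Of 15 NK and cytotoxic genes neither tool called any, 1 was lower at an unadjusted p under 0.05, and tpMSC-3 had the highest mean level of that list (0.43) of the 6 libraries, while tpMSC-1 and tpMSC-2 had the lowest.

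**Figure D3:**
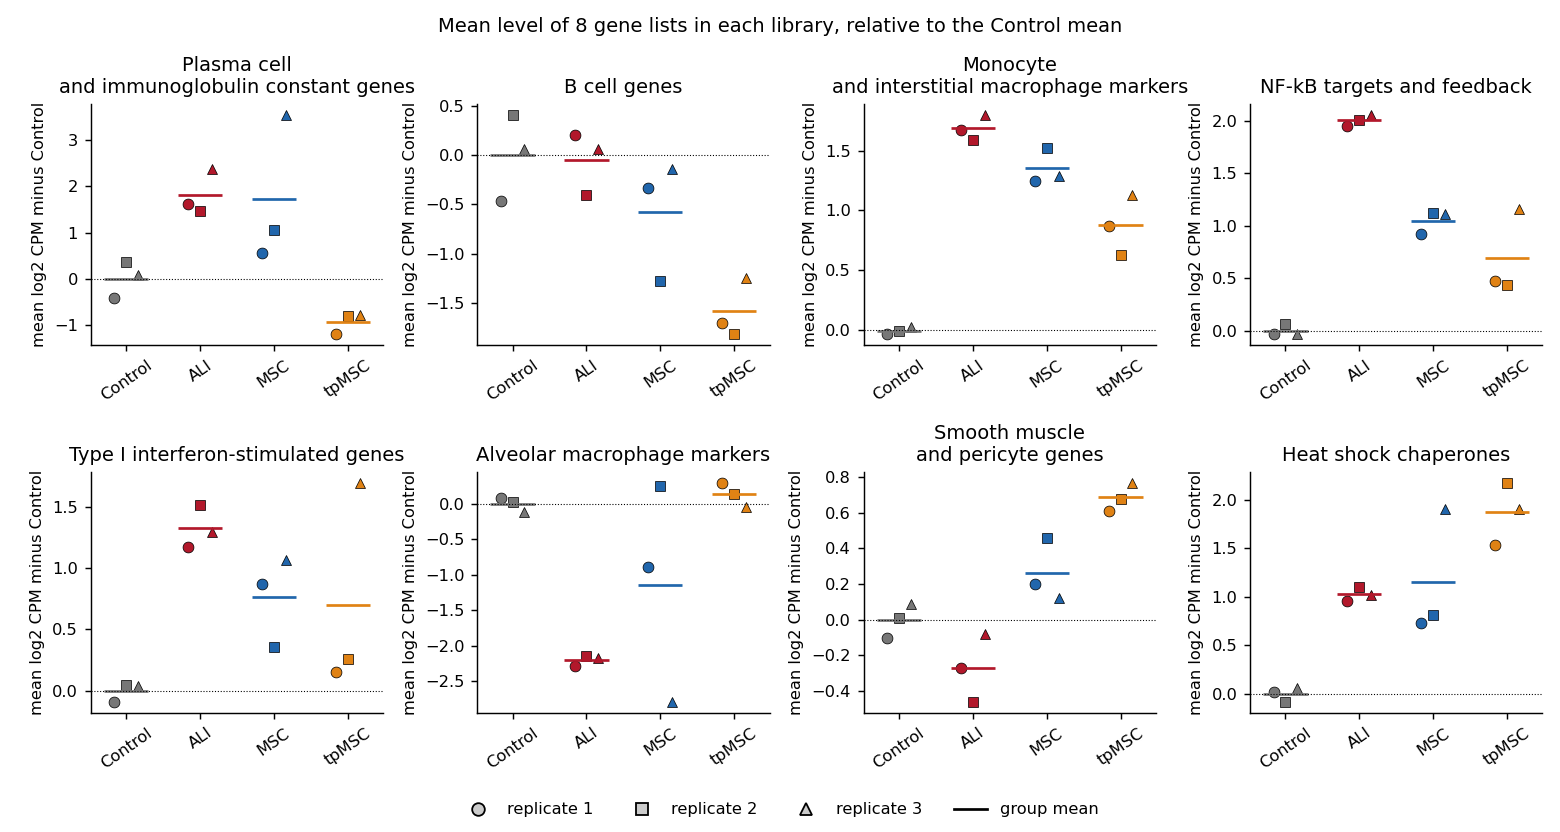
Mean log2 CPM of 8 gene lists in each library, minus the Control mean, with 1 symbol per library and a line at each group mean (n = 3). Plasma cell genes lie at -1.20 to -0.80 in tpMSC and at 0.55 to 3.56 in MSC; tpMSC-3 lies with or above MSC for NF-kB and interferon lists, and MSC-3 with tpMSC for heat shock.

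Macrophage genes divided by type. Of 18 monocyte and interstitial macrophage markers edgeR called none and DESeq2 5 lower, 8 were lower and 1 higher at an unadjusted p under 0.05, and the median was -0.53 (-0.71 without tpMSC-3). Without MSC-3 DESeq2 called 3 of them lower. Apoe, a lipid carrier, measured 286, 514 and 527 FPKM in MSC and 258, 202 and 180 FPKM in tpMSC (adjusted p = 0.114). Ms4a7, a marker of monocyte-derived macrophages, was at 4.93, 6.99 and 18.8 FPKM in MSC and 2.79, 1.47 and 2.33 FPKM in tpMSC (adjusted p = 0.107). C1qc, a chain of the first complement component, was at 38.8, 54.0 and 64.6 FPKM in MSC and 31.7, 25.3 and 37.2 FPKM in tpMSC (adjusted p = 0.14, and 0.0422 without tpMSC-3). In each of these genes all tpMSC libraries were below all MSC libraries.

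Genes of lipid-associated macrophages leaned lower, without a call by edgeR. Gpnmb, a lysosomal glycoprotein, measured 17.41, 14.82 and 50.76 FPKM in MSC and 7.08, 4.39 and 4.83 FPKM in tpMSC (log2 fold change -2.33, adjusted p = 0.0931). Without MSC-3 the difference was smaller (-1.54) and was called (adjusted p = 0.014), as it was without tpMSC-3 (0.0411). Trem2, a lipid receptor, was at 4.26, 6.63 and 7.92 FPKM in MSC and 2.98, 1.78 and 2.78 FPKM in tpMSC (log2 fold change -1.30, adjusted p = 0.0931, and 0.029 without tpMSC-3). Of the 15 genes of this list, DESeq2 called 5 lower, 5 were lower and 1 higher at an unadjusted p under 0.05, with a median of -0.34.

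Markers of alternative activation did not share a direction, and edgeR called none of 15 (2 higher and 2 lower at an unadjusted p under 0.05, 1 each way by DESeq2). Arg1, the arginase of alternatively activated macrophages, measured 4.74, 14.26 and 6.47 FPKM in MSC and 2.52, 2.12 and 2.60 FPKM in tpMSC (log2 fold change -1.79, adjusted p = 0.0943, and 0.0496 without tpMSC-3). The lectin Mgl2 was at 2.66, 2.38 and 0.88 FPKM in MSC and 5.41, 7.32 and 6.04 FPKM in tpMSC (log2 fold change 1.69, adjusted p = 0.107). Neither gene overlapped between groups, and the median of the 15 genes was -0.011 (-0.085 without tpMSC-3 and -0.172 without MSC-3).

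Alveolar macrophage markers were higher in tpMSC where MSC-3 was included. Of 16, edgeR called none and DESeq2 2 higher, 4 were higher at an unadjusted p under 0.05, and the median was 0.58 with all libraries and 0.11 without MSC-3. Fabp1, a fatty acid binding protein, measured 0.26, 0.52 and 0 FPKM in MSC and 3.83, 7.03 and 3.15 FPKM in tpMSC, against a Control mean of 11.2 ± 2.29 FPKM (SD, n = 3). Its adjusted p was 0.105 with all libraries, 0.0877 without MSC-3 and 0.0334 without tpMSC-3. Ear2, an eosinophil-associated ribonuclease of alveolar macrophages, was at 34.0, 83.8 and 1.17 FPKM in MSC and 93.9, 99.6 and 50.4 FPKM in tpMSC, so the groups overlapped, and its reads can be shared with near-identical Ear genes. Siglecf, the defining sialic acid lectin, was at 0.89, 2.82 and 0.61 FPKM in MSC and 5.02, 4.02 and 2.53 FPKM in tpMSC (adjusted p = 0.213). The mean level of the list relative to Control was -0.89, 0.25 and -2.79 in MSC-1, MSC-2 and MSC-3 and 0.30, 0.14 and -0.04 in tpMSC.

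Inflammatory genes turned on 1 library. Without tpMSC-3, edgeR called 106 genes higher (0.448%) and 280 lower (1.18%), and all 7 genes called with all libraries were among them. Of the 280 lower genes, 239 had risen in ALI against Control (85.4%) and 2 had fallen. Of the 106 higher genes, 81 had fallen in ALI (76.4%) and 5 had risen. Over all genes tested, 20.2% rose and 19.6% fell in ALI against Control, a comparison that shares no library with tpMSC against MSC. This order was present in all libraries as a small shift: the median log2 fold change in tpMSC was -0.09 for genes that rose in ALI, 0.093 for genes that fell and -0.005 for the rest. Without tpMSC-3 those medians were -0.157, 0.14 and -0.002, and without MSC-3 they were -0.077, 0.088 and 0.001.

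With all libraries edgeR called none of 19 NF-kB targets and feedback genes and DESeq2 1 lower, and 7 were lower at an unadjusted p under 0.05. Without tpMSC-3, 11 of 19 were called lower: Relb, Sod2, Tnfaip3, Rel, Tnip1, Nfkbia, Tnfaip2, Nfkbie, Nfkb1, Birc3 and Zc3h12a. The median of the list was -0.30 with all libraries and -0.67 without tpMSC-3. Its mean level relative to Control was 0.92, 1.12 and 1.11 in MSC and 0.47, 0.44 and 1.16 in tpMSC, against 1.95 to 2.06 in ALI.

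Nfkbia encodes the inhibitor IkB-alpha and Nfkb2 a subunit of NF-kB, and their promoters are shown because NF-kB sites in them are the textbook case of feedback. With all libraries their log2 fold changes were -0.47 and -0.28 (adjusted p = 0.254 and 0.6). Nfkb2 was not called without tpMSC-3 either. The windows hold the 250 bases before the RefSeq start (GRCm38.p6), 5′ to 3′ on the gene's strand, at chr12:55492648-55492897 (minus strand) and chr19:46305445-46305694 (plus strand, 1 of 3 starts). Capitals mark matches to GGGANNTTCC or its reverse complement GGAANNTCCC.
Nfkbia: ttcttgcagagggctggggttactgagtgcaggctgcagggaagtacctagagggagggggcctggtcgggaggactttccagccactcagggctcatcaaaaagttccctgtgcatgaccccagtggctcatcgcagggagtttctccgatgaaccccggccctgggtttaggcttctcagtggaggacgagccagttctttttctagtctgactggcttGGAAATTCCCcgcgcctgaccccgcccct
Nfkb2: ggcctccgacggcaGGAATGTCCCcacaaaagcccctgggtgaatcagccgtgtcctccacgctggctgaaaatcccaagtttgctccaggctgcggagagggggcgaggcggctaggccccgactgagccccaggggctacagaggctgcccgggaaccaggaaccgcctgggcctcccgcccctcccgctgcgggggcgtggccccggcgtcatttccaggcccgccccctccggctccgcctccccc
Such a match was found in at least 1 window of 2 of 15 genes of the list that had a window. Counted per window, 1.21% of all 32851 windows held it, so the gene and window shares are not directly comparable. A match describes the letters only.

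Tnfaip3, the ubiquitin-editing inhibitor A20, measured 14.57, 17.58 and 11.51 FPKM in MSC and 5.43, 5.74 and 12.78 FPKM in tpMSC. tpMSC-3 lay within the MSC range. The log2 fold change was -0.84 with all libraries (adjusted p = 0.244) and -1.36 without tpMSC-3 (adjusted p = 0.00438). Tnf was at 15.15, 17.01 and 13.93 FPKM in MSC and 6.77, 4.95 and 20.72 FPKM in tpMSC, so tpMSC-3 was the highest of the 6 libraries. Without it Tnf was called lower (log2 fold change -1.37, adjusted p = 0.00438). The ALI mean was 112 ± 13.1 FPKM (SD, n = 3) and the Control mean 0.69 ± 0.13. Of 20 inflammatory cytokine genes edgeR called none and DESeq2 1 higher, with 1 higher and 3 lower at an unadjusted p under 0.05. The median was -0.436 (-0.881 without tpMSC-3, where edgeR called 2 lower). Il18 went the other way, with a log2 fold change of 1.23 (adjusted p = 0.22), and was the DESeq2 call.

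Acod1, which makes the immune metabolite itaconate in activated macrophages, measured 27.19, 23.20 and 36.43 FPKM in MSC and 4.36, 2.51 and 27.74 FPKM in tpMSC. The log2 fold change of -1.29 was not called (adjusted p = 0.463), and -3.05 without tpMSC-3 was (adjusted p = 0.00438). Il4i1, an amino acid oxidase of activated myeloid cells, was at 1.27, 1.11 and 1.9 FPKM in MSC and 0.09, 0.07 and 0.63 FPKM in tpMSC. Here all 3 tpMSC libraries were below MSC, and the adjusted p was 0.155 with all libraries and 0.00127 without tpMSC-3. The scavenger receptor Msr1 was at 6.75, 8.85 and 9.77 FPKM in MSC and 3.35, 2.99 and 7.86 FPKM in tpMSC, and it was called without tpMSC-3 (adjusted p = 0.00438). A list of 24 activated macrophage genes was chosen after these values were seen, so its counts are description and no test. Without tpMSC-3, 19 were called lower, where 1.18% of all genes were. With all libraries 1 was called, Pla2g7.

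Interferon genes separated tpMSC-3 from the rest. The CXCR3 ligand Cxcl10 measured 16.71, 7.50 and 13.68 FPKM in MSC and 1.82, 3.27 and 47.76 FPKM in tpMSC. tpMSC-3 was the highest of the 6 libraries, and tpMSC-1 and tpMSC-2 were the lowest. The sign of its log2 fold change turned from 0.52 with all libraries (adjusted p = 0.876) to -2.28 without tpMSC-3 (adjusted p = 0.0336). Cxcl9 showed the same order, with 27.41, 12.00 and 22.47 FPKM in MSC and 2.43, 3.03 and 52.42 FPKM in tpMSC (adjusted p = 0.99, and 0.0331 without tpMSC-3). The median of the 22 genes of the interferon gamma axis went from 0.31 to -0.60 without tpMSC-3, and that of 24 type I interferon-stimulated genes from 0.10 to -0.60. Of the latter, Irf7, Ifih1, Ifit1 and Ifit3 were called lower without tpMSC-3. With all libraries edgeR called no gene of either list, 2 of the former were lower at an unadjusted p under 0.05 and none of the latter, and DESeq2 called 1 of the former lower.

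**Figure D4:**
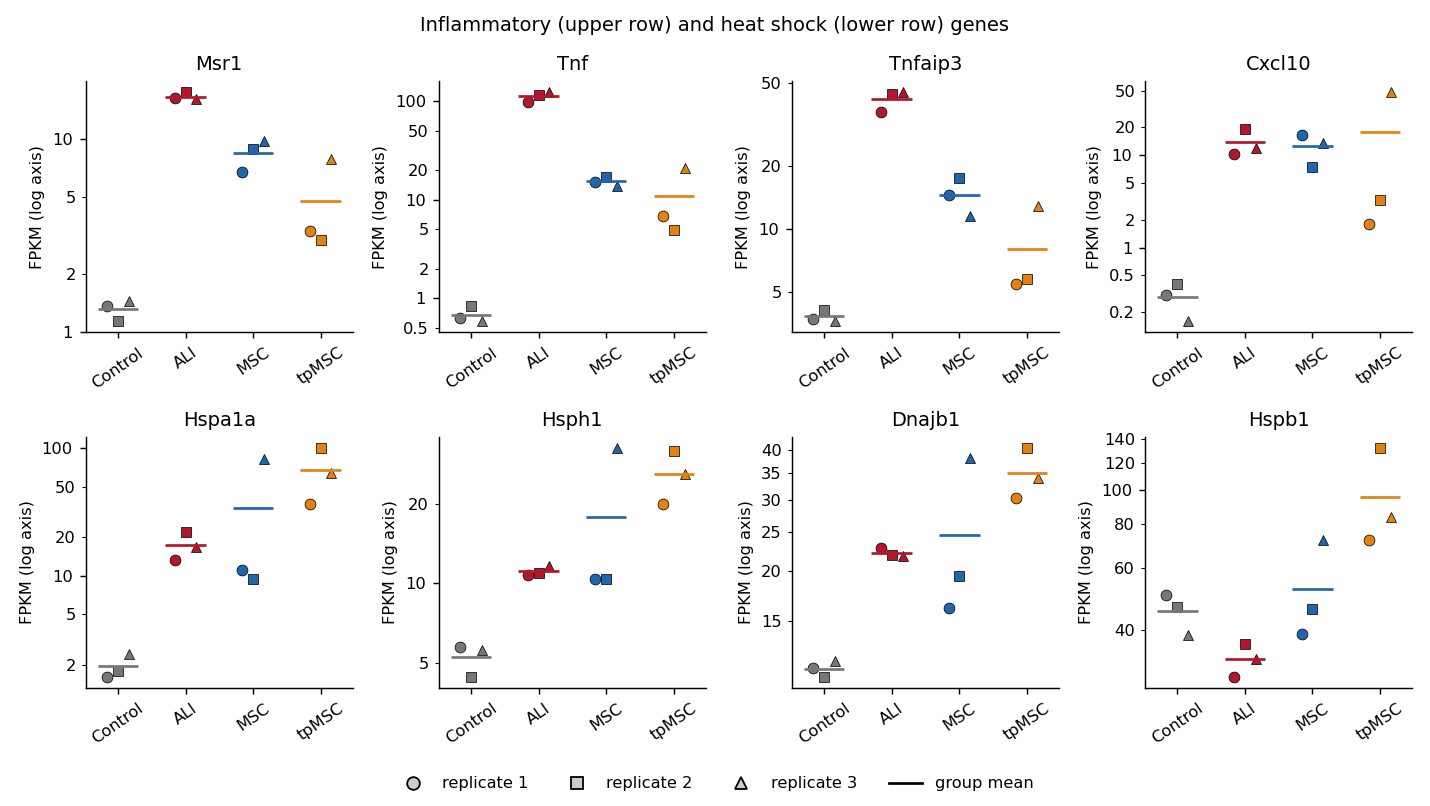
FPKM (log axis) of 4 inflammatory and 4 heat shock genes in each library, with 1 symbol per library and a line at each group mean (n = 3). In the upper row tpMSC-3 (triangle) lies near or above the MSC libraries; in the lower row MSC-3 (triangle) lies above MSC-1 and MSC-2.

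Of 17 neutrophil and monocyte chemokines edgeR called none, 3 were lower at an unadjusted p under 0.05, DESeq2 called none, and the median was -0.403. Without tpMSC-3 that median was -0.876 and edgeR called 4 lower, and tpMSC-3 had a higher mean level of the list (3.65) than the MSC libraries (3.02 to 3.48). Of 13 lymphoid and type 2 chemokines edgeR called none and DESeq2 1 lower, with 4 lower and 1 higher at an unadjusted p under 0.05 (median -0.262, and -0.613 without tpMSC-3). Cxcl13, the B cell attracting chemokine, measured 88.18, 149.24 and 138.65 FPKM in MSC and 49.18, 32.73 and 60.00 FPKM in tpMSC, with no overlap (log2 fold change -1.38 ± 0.24, SE, adjusted p = 0.0931). It was called without tpMSC-3 (adjusted p = 0.0155) and not without MSC-3 (0.155). Ccl20, a ligand of CCR6, was at 9.35, 23.6 and 10.7 FPKM in MSC and 3.77, 6.22 and 5.37 FPKM in tpMSC (adjusted p = 0.156). Lcn2, the iron-binding neutrophil lipocalin, was at 580, 877 and 701 FPKM in MSC and 299.97, 253 and 490 FPKM in tpMSC (log2 fold change -1.02, adjusted p = 0.123, and 0.00553 without tpMSC-3). Of 19 neutrophil markers 6 were lower and 1 higher at an unadjusted p under 0.05 (median -0.58, and -0.384 without MSC-3), and of 20 acute phase genes 7 were lower (median -0.36). EdgeR called none of either list, and DESeq2 called 2 lower of each.

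Of 19 complement genes edgeR called none, 7 were lower at an unadjusted p under 0.05, and DESeq2 called 6 lower, but 1 without MSC-3. The median was -0.168 (-0.347 without tpMSC-3). C3ar1, the receptor of the C3a fragment, measured 6.61, 9.24 and 9.38 FPKM in MSC and 3.68, 2.32 and 5.33 FPKM in tpMSC (adjusted p = 0.13), and C1qa was at 87.3, 126 and 149 FPKM in MSC and 69.9, 53.1 and 86.2 FPKM in tpMSC (0.159). Without tpMSC-3, 7 of 19 were called lower: C1qa, C1qb, C1qc, C1s1, C1ra, C3ar1 and Cfb. Cd38, an NAD-consuming ectoenzyme outside the lists, was at 12.87, 11.61 and 10.34 FPKM in MSC and 6.13, 6.01 and 8.02 FPKM in tpMSC. Its adjusted p was 0.0931 with all libraries, 0.00438 without tpMSC-3 and 0.0498 without MSC-3. tpMSC was below both Control (13.6 ± 1.07 FPKM, SD, n = 3) and ALI (16.1 ± 1.05).

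Heat shock genes turned on MSC-3. Without it, edgeR called 11 genes higher in tpMSC (0.0466%) and 7 lower (0.0296%), and 5 of the 11 belonged to the list of 12 heat shock chaperones: Hspa1a, Hspa1b, Hsph1, Dnajb1 and Hsp90aa1. With all libraries edgeR called none of the 12 and DESeq2 3 higher, and 6 were higher at an unadjusted p under 0.05. The median of the list was 0.53 with all libraries and 0.85 without MSC-3. Its mean level relative to Control was 0.73, 0.81 and 1.91 in MSC, 1.54, 2.18 and 1.91 in tpMSC, and 0.96 to 1.10 in ALI.

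The promoters of Hspa1a and Hsph1 are shown because inverted repeats of the HSF1 half-site define the heat shock element. The windows hold the 250 bases before the RefSeq start (GRCm38.p6) at chr17:34972157-34972406 and chr5:149636337-149636586 (minus strand, the latter 1 of 2 starts). Capitals mark GAANNTTC or TTCNNGAA, each of which reads the same on both strands.
Hspa1a: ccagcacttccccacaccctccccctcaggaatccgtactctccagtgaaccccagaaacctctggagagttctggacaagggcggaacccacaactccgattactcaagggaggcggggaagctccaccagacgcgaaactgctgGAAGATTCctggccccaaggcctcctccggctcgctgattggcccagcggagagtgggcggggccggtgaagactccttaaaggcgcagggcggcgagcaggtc
Hsph1: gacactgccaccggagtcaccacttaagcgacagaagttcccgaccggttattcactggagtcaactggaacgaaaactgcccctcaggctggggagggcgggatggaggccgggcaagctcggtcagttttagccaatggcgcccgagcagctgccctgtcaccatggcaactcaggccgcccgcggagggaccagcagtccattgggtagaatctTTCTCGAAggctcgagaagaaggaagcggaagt
Such a pair was found in at least 1 window of 7 of the 9 genes of the list that had a window. Counted per window, 12.8% of all windows held it, so the gene and window shares are not directly comparable.

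Hspa1a, the inducible Hsp70, measured 11.16, 9.46 and 81.96 FPKM in MSC and 36.81, 100.59 and 64.23 FPKM in tpMSC, against 17.3 ± 4.38 FPKM in ALI and 1.95 ± 0.43 in Control (SD, n = 3). MSC-3 lay within the tpMSC range, and MSC-1 and MSC-2 lay below the ALI mean. The log2 fold change was 1.00 ± 0.68 with all libraries (SE, adjusted p = 0.608) and 2.74 without MSC-3 (adjusted p = 0.0449). Hspa1b, a near-identical neighbour whose reads cannot be fully separated from those of Hspa1a, gave 0.93 and 2.73. Hsph1, the Hsp110 exchange factor, was at 10.37, 10.43 and 32.51 FPKM in MSC and 20.04, 31.79 and 25.83 FPKM in tpMSC. It was called without MSC-3 (log2 fold change 1.35, adjusted p = 0.0356).

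For Hspb1, Fkbp4 and Bag3 every tpMSC library was above every MSC library, though for Hspb1 and Bag3 tpMSC-1 barely exceeded MSC-3 (72.22 against 72.17 FPKM for Hspb1, equal as rounded for Bag3). Hspb1, the small chaperone Hsp27, measured 38.95, 46.02 and 72.17 FPKM in MSC and 72.22, 132.15 and 83.91 FPKM in tpMSC (log2 fold change 0.90, adjusted p = 0.175). The Hsp90 co-chaperone Fkbp4 was at 47.42, 43.81 and 62.66 FPKM in MSC and 70.28, 85.80 and 69.24 FPKM in tpMSC (adjusted p = 0.132), and it was called without MSC-3 (0.0449). Hsp90ab1 was at 222, 228 and 324 FPKM in MSC and 308, 399 and 434 FPKM in tpMSC, so tpMSC-1 was below MSC-3. Bag3, a chaperone partner, was at 15.6, 16.9 and 20.6 FPKM in MSC and 20.6, 28.3 and 26.2 FPKM in tpMSC (adjusted p = 0.152). Genes of the unfolded protein response in the endoplasmic reticulum differed less, with a median of 0.12 over 18 genes (0.259 without MSC-3) and 1 at an unadjusted p under 0.05.

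With both replicates 3 left out, 85 genes were called higher (0.362%) and 271 lower (1.15%). All 7 genes called with every library were among them, together with 8 heat shock chaperones (higher), 9 of 19 NF-kB genes (lower) and 6 of 20 plasma cell genes (lower). Each group then held 2 libraries, and the spread was estimated over all 10 libraries left.

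Structural cells were higher in part. Of 15 smooth muscle and pericyte genes edgeR called none and DESeq2 1 higher (median 0.44). At an unadjusted p under 0.05, 9 were higher (5.5% over all genes) and none lower. The tpMSC libraries lay wholly above MSC for 10 of them (5.18% over all genes). Des, the intermediate filament desmin, measured 18.5, 24.4 and 17.3 FPKM in MSC and 26.3, 27.4 and 28.9 FPKM in tpMSC (adjusted p = 0.177). Cox4i2, a pericyte isoform of a respiratory chain subunit, was at 23.9, 21.7 and 21.2 FPKM in MSC and 32.7, 35.7 and 24.8 FPKM in tpMSC (adjusted p = 0.201). Notch3, the receptor of mural cells, had a log2 fold change of 0.27 (adjusted p = 0.177). Acta2, by contrast, overlapped between groups, at 47.2, 81.7 and 36.0 FPKM in MSC and 72.1, 73.1 and 95.2 FPKM in tpMSC.

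Of 15 alveolar and adventitial fibroblast genes edgeR called none and DESeq2 2 higher, 7 were higher at an unadjusted p under 0.05 and none lower (median 0.30). Col13a1, a transmembrane collagen, was at 13.8, 15.1 and 13.9 FPKM in MSC and 19.0, 23.5 and 17.6 FPKM in tpMSC (adjusted p = 0.114), and was called without tpMSC-3 (0.029). Gsn, the actin-severing protein gelsolin, was at 415, 308 and 339 FPKM in MSC and 483, 452 and 423 FPKM in tpMSC. Collagen and matrix genes as a list had a median of 0.10 (-0.008 without tpMSC-3 and -0.033 without MSC-3) with 2 higher and 1 lower of 24 at an unadjusted p under 0.05.

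Epithelial lists had no shared direction, and the type 2 and club medians changed sign when 1 library was left out. Alveolar type 1 genes had a median of 0.047 (0.099 without MSC-3), with 3 of 15 higher at an unadjusted p under 0.05. Alveolar type 2 genes had a median of -0.115 (0.015 without MSC-3), with 3 of 16 lower. The 15 club, secretory and mucin genes had a median of 0.047 with all libraries, -0.33 without MSC-3 and -0.236 without tpMSC-3. The 8 basal cell and keratin genes tested had a median of -0.361 (-0.606 without MSC-3), with 1 lower at an unadjusted p under 0.05. The collectin Sftpd was at 528, 587 and 770 FPKM in MSC and 433, 387 and 458 FPKM in tpMSC (adjusted p = 0.196). The club cell secretory gene Scgb1a1 had a log2 fold change of 0.68 (adjusted p = 0.206). Of 16 ciliated cell genes 4 were higher at an unadjusted p under 0.05 (median 0.139, and 0.213 without tpMSC-3), and neither tool called any.

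Some genes of other programs did not overlap between groups and were not called by edgeR. Over all genes, 5.18% lay wholly above MSC and 8.1% wholly below. Per1, a clock gene induced by glucocorticoids, measured 18.9, 17.9 and 16.6 FPKM in MSC and 12.2, 11.3 and 8.39 FPKM in tpMSC (log2 fold change -0.72, adjusted p = 0.13). Of 19 clock genes 2 were lower and none higher at an unadjusted p under 0.05 (median -0.052). Of 16 metallothionein and glucocorticoid-responsive genes 4 were lower and 1 higher at that p (median -0.111). Cyp1b1, a target of the aryl hydrocarbon receptor, was at 5.25, 6.65 and 5.76 FPKM in MSC and 3.20, 3.47 and 4.31 FPKM in tpMSC (adjusted p = 0.114, and 0.0177 without tpMSC-3), and another target, Tiparp, had a log2 fold change of -0.31. Of 20 cytochrome P450 and xenobiotic genes 4 were lower and none higher at an unadjusted p under 0.05 (median -0.017). The immediate early genes Jund, Ier2 and Klf4 were higher, with log2 fold changes of 0.27, 0.37 and 0.45 (adjusted p = 0.141, 0.142 and 0.175). Their list of 20 genes as a whole did not shift, with a median of 0.052 (-0.011 without tpMSC-3). In it 4 were higher and none lower at an unadjusted p under 0.05. DESeq2 called Per1, Cyp1b1, Tiparp, Jund, Ier2 and Klf4.

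Further lists held no gene at an unadjusted p under 0.05 with all libraries and none called by edgeR or DESeq2. They included cell cycle genes (25 tested, median 0.06), cytosolic ribosomal proteins (21, -0.04), MHC class I presentation (18, 0.08), haemoglobin and erythroid genes (12, -0.08), platelet genes (11, -0.01), transitional epithelium (13, 0.01) and cardiac genes (11, 0.38). Without tpMSC-3 the median turned to -0.102 for cell cycle, 0.038 for ribosomal, -0.171 for MHC class I, -0.05 for transitional epithelium and -0.386 for cardiac genes. Without MSC-3 it turned to -0.079 for cell cycle, -0.073 for transitional epithelium and -0.058 for cardiac genes.

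Mesenchymal stromal cell factors had a median of -0.058 over 18 genes (-0.224 without tpMSC-3), with 1 higher and 1 lower at an unadjusted p under 0.05 and none called by edgeR or DESeq2. These were Hgf and Fgf7, growth factors of the stroma, with log2 fold changes of -0.42 for Hgf (adjusted p = 0.25) and 0.16 for Fgf7 (adjusted p = 0.359).

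The position of each library between Control (0%) and ALI (100%) was computed over the 4630 genes that rose and the 4496 that fell in ALI against Control. MSC-1, MSC-2 and MSC-3 lay at 51.6%, 66.6% and 66.5%, and tpMSC-1, tpMSC-2 and tpMSC-3 at 40.6%, 38.9% and 56.7%. tpMSC-3 lay above MSC-1, so the groups overlapped by this pair. The difference in means was -16.2 points (exact two-sided permutation test, p = 0.2, smallest possible 0.1). Without tpMSC-3 it was -21.8 points and without MSC-3 -13.7 points, and it was below 0 whichever of the 6 libraries was left out.

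**Figure D5:**
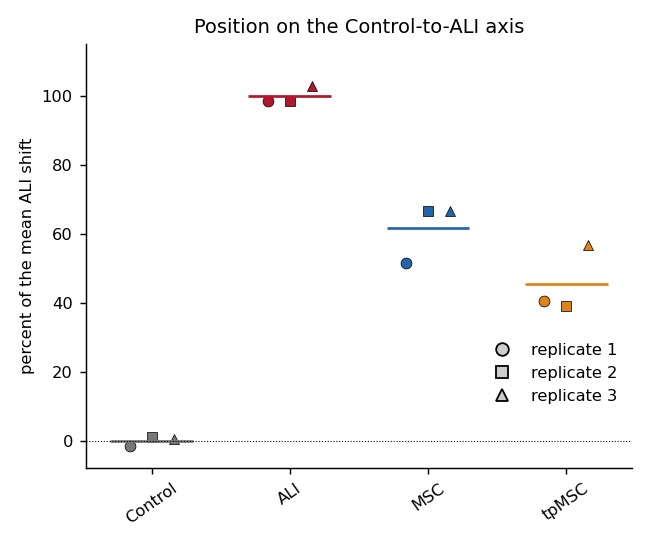
Position of each library on the Control-to-ALI axis, in percent of the ALI shift, with 1 symbol per library and a line at each group mean (n = 3). MSC libraries lie at 51.6% to 66.6% and tpMSC libraries at 38.9% to 56.7%.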

How the data were processed

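The authors deposited 1 table of 38349 genes with raw read counts and FPKM values for each of 12 libraries, per the file headers. Per the labels' protocols, oligo(dT)-selected RNA of whole lung was made into dUTP-marked libraries and sequenced as read pairs. Tools listed without roles in the submitters' processing notes are HISAT2 2.0.4, edgeR, StringTie 1.3.4d, cutadapt 1.9 and DESeq2, with genome build GRCm38. How reads were counted, and whether by strand, is not stated by the labels or the table, so overlapping antisense genes cannot be told apart. The deposited positions equal those of GENCODE M21 (GRCm38) for 628 genes of 35571 matched by Ensembl ID, so the positions printed are those of GENCODE M21.

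After filterByExpr and TMM scaling, edgeR 4.0.16 (R 4.3.3) fitted 1 mean per group to the counts of all 12 libraries with its quasi-likelihood method. The median biological coefficient of variation was 0.184. The contrast was tpMSC minus MSC, and calls used an adjusted p under 0.05. Levels are deposited FPKM. List levels are means of log2 CPM (prior count 2). The processing was also run on simulated counts, drawn without a library that departs from its group. No result here rests on that run. DESeq2 1.42.0 and limma 3.58.1 on log2(FPKM + 1) were alternatives, with other filters, scaling, a replicate block and each library left out.

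The comparison, its 59 gene lists and 4 further lists were chosen with earlier results of these data known. Named genes are those called with at least 1 FPKM and no overlap (up to 15 each way, without predicted genes and immunoglobulin segments) and up to 3 members of each list by smallest p. Other named genes were chosen after their values were seen. Groups and replicates came from the titles. Some items are not reported here.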

Additional observations from a re-analysis of the deposited data

How the results depend on the processing

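The count of 7 calls moved with most choices. Leaving out 1 of the 6 libraries gave 0 to 386 genes called between tpMSC and MSC: 104 without MSC-1, 52 without MSC-2, 18 without MSC-3, 2 without tpMSC-1, 0 without tpMSC-2 and 386 without tpMSC-3. Leaving out MSC-3 and tpMSC-3 together gave 356. RLE scaling gave 4. No filter on low counts gave 0 calls (3226 at an unadjusted p under 0.05), and a fit of the 6 libraries alone gave 0 (1795). DESeq2 gave 670 with all libraries, 1761 without tpMSC-3 and 379 without MSC-3, the last pair added after seeing the data. The stricter filter gave 7 and limma on log2(FPKM + 1) gave 9. With the replicate block the count was 0 (2782 at an unadjusted p under 0.05). Whether the replicate numbers pair the libraries could not be decided. Group-centred values of equal numbers correlated at 0.0134, -0.0069 and 0.0149, within a range of -0.0209 to 0.0149 over all 9 combinations. Of the 3 tpMSC libraries, 2 correlated best with MSC of their own number. The 7 called genes kept their sign under each of the 16 alternatives. Cxcl10 reversed: its log2 fold change of 0.52 became -2.28 without tpMSC-3 (lowest with 1 library left out, the highest being 1.05 without tpMSC-1) and -2.29 with DESeq2 without tpMSC-3. The position difference ranged from -21.8 to -12.9 points with 1 library left out. The cause of these changes was not tested.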
